A study of Mus musculus with 6 samples.

Results

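The genes described here encode the machinery that licenses replication origins, copies DNA at the replication fork and repackages the new strands. They were taken from a fixed list of 40 symbols. A gene was matched where a probe set carried exactly 1 symbol in the platform's probe-to-gene table, and it was represented by the probe set with the highest mean over the 6 arrays. By that rule 39 of the 40 genes were matched, out of 18194 genes on the array, and Chaf1a was not. Every matched gene passed the filter on dim probe sets, since its probe set lay above the array's median on at least 3 of the 6 arrays.

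RNA came from haematopoietic stem cells of C57BL/6 mice between 8 and 12 weeks old, housed under specific pathogen-free conditions. They were sorted from whole bone marrow as the side population, which pumps out a Hoechst dye, with Sca-1, c-kit and lineage staining. One group of 3 arrays, titled Lrg47_HSC, came from mice labelled Lrg-47-/-, that is, without the interferon-induced GTPase Irgm1, and 3 arrays, titled WT_HSC, came from wild-type mice. The labels give neither the deleted part of the gene nor the number of mice behind an array, so p-values measure only the spread between these arrays. Values are log2 expression levels, and a difference is the mean of the Lrg47_HSC arrays minus that of the WT_HSC arrays.

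Replication is prepared in G1, when the origin recognition complex (Orc1 to Orc6), Cdc6 and Cdt1 load the MCM helicase onto origins. Geminin (Gmnn) then holds Cdt1 back, and the kinase Cdc7 with its activator Dbf4 starts the loaded helicases. At the fork, primase and polymerase alpha lay down primers, the clamp loader (Rfc1 to Rfc5) places the sliding clamp PCNA, and polymerases delta and epsilon extend the strands. Most adult haematopoietic stem cells are quiescent, and many of these genes are targets of E2F transcription factors that are switched on as cells leave quiescence.

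Promoter sequences were examined for the words that E2F factors are known to bind. RefSeq windows of assembly GRCm38.p6, each of 300 bases from 250 before to 50 after an annotated start, were at hand for 35 of the 40 listed genes. The words searched, on both strands, were TTTGGCGC, TTTCCCGC, TTTGCCGC and TTTCGCGC. At least 1 of these stood in the windows of 13 of the 35 genes (37.1%), against 2.6% of 27025 genes with a window of this length. The gene set has more windows with such a word than the genome at large, as a description of letters and not of binding. Stretches of 30 bases around the word are printed for some of the 13 genes, none of which passed the test below. They are read 5′ to 3′ in the direction of the gene, with the E2F word in capitals. The Rfc3 stretch also holds that gene's other word, at position 1, left in lower case.
Orc1 (chr4:108579416-108579445, plus strand): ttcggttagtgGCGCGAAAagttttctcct
Cdc6 (chr11:98908002-98908031, plus strand): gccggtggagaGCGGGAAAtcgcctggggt
Dtl (chr1:191575534-191575563, minus strand): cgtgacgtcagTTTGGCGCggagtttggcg
Pola1 (chrX:93632275-93632304, minus strand): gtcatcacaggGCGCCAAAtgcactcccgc
Pole2 (chr12:69228162-69228191, minus strand): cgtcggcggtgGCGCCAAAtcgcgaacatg
Clspn (chr4:126556990-126557019, plus strand): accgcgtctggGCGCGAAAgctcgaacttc
Rfc3 (chr5:151651200-151651229, minus strand): acgtcgcacgcTTTCGCGCtcgcgggaaaa

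The word stood in 6 of 20 genes whose arrays did not overlap between the groups (30.0%) and in 7 of the 14 other genes on the array (50%), and whether this share differs between them was not tested. Differences between the groups in the 13 genes with the word ran from 0.03 (Rfc3) to 1.46 (Cdc6). The words nearest to an annotated start belonged to Rfc3, at positions −10 and 1, and to Dtl, at position −8. No word was found for Rfc5 or Timeless, which passed the test below, but not every listed gene had a window. Pold2 and Rfc4, which passed it too, had none of the words in their windows. The upstream bases of Pold2 and Rfc4, which lie in no annotated gene, are printed for that reason. Capitals there mark CCAAT, the box bound by NF-Y, on either strand.
Pold2 (chr11:5878257-5878506, minus strand): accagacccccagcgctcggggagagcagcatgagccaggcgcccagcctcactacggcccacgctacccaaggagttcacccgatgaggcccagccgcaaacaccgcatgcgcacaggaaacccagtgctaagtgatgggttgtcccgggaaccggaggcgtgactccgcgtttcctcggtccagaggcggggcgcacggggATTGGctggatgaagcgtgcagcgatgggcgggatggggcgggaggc
Rfc4 (chr16:23127731-23127980, minus strand): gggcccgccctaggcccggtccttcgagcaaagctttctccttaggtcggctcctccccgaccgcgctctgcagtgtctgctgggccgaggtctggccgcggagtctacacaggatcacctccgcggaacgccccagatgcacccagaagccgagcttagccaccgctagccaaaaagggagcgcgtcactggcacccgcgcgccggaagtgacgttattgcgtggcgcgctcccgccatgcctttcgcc
CCAAT stood in 54.3% of the 35 genes and in 41.1% of all genes. TTTGAA, a form of the CHR element of genes expressed late in the cycle, stood in 14.3% and 20.2%. None of the words contains another.

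The arrays themselves differed little in overall level. Their medians lay between 3.67 and 3.73. Irgm1 was read at 7.68, 8.58 and 7.84 on the Lrg47_HSC arrays and at 8.39, 8.57 and 8.36 on the WT_HSC arrays (adjusted p = 0.475, limma), and since the deleted part is not given this checks nothing about the genotype. Of 12 stem cell markers 10 had a probe set, and their mean level was 9.88 to 10.18 on the Lrg47_HSC arrays and 10.22 to 10.31 on the WT_HSC arrays, with 0 of 10 past the threshold by limma and 1 higher and 5 lower at unadjusted p under 0.05, where 8.51% of tested genes were higher and 10% lower.

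Replication genes were higher on the Lrg47_HSC arrays, mostly by less than 2-fold. Of the 39 genes, 37 had a positive difference, with a median of 0.70 against 0.0034 over all 10372 genes tested. The groups did not overlap for 23 of them, in each case with every Lrg47_HSC array above every WT_HSC array, a pattern that 12.8% of all tested genes showed. None showed the opposite pattern. In the limma fit over all 22580 probe sets, 4 of the 39 rose at an adjusted p under 0.05, where 1.08% of tested genes rose, and 0 fell, where 0.945% fell. At unadjusted p under 0.05, 26 were higher and 0 lower, against 8.51% and 10% of tested genes. The 4 genes that rose were Pold2, Rfc4, Rfc5 and Timeless. When dim probe sets were kept in the test, 0 of the 39 rose (adjusted p = 0.051 for Pold2, 0.0637 for Rfc4, 0.0943 for Rfc5 and 0.0788 for Timeless). With array weights 12 did. Over all probe sets tested, 49 of 45037 rose with dim ones kept and 401 of 22580 with array weights, against 150 in the fit reported.

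**Figure D1:**
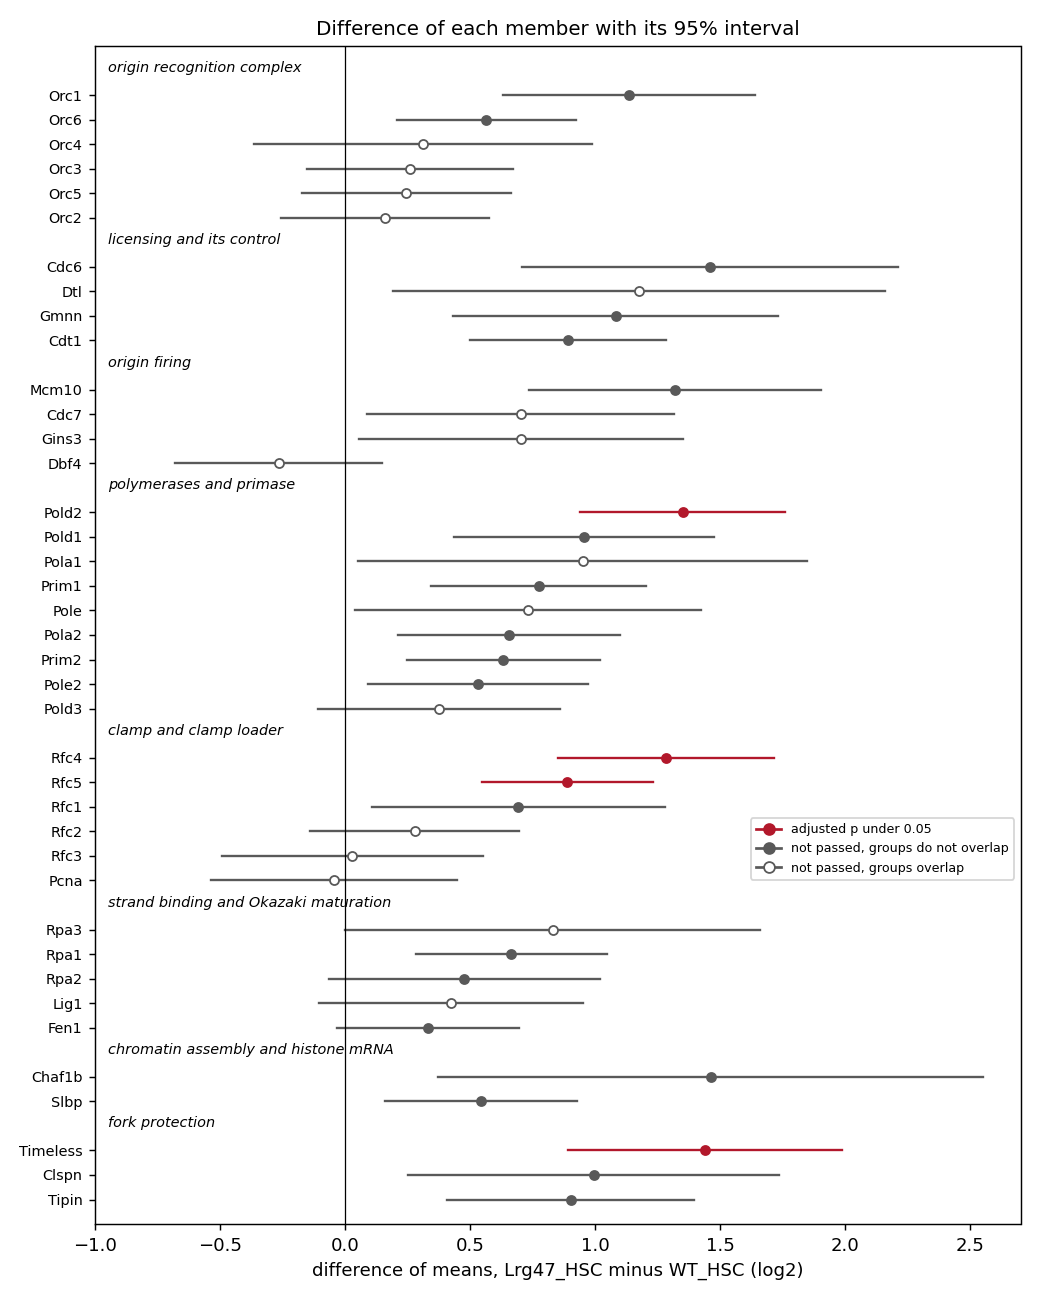
Difference of means (x axis, log2, Lrg47_HSC minus WT_HSC) with its 95% interval for each of the 39 genes, arranged by subgroup. Red marks the 4 genes with adjusted p under 0.05, and filled points mark genes whose groups do not overlap. All points but those of Dbf4 and Pcna lie to the right of 0.

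Single arrays moved the calls. Over all 22580 probe sets, 17 to 138 rose with an array left out, against 150 with all arrays. Of the 39 genes 1 rose without Lrg47_HSC replicate 1, 1 without Lrg47_HSC replicate 2, 2 without Lrg47_HSC replicate 3, 0 without WT_HSC replicate 1, 0 without WT_HSC replicate 2 and 2 without WT_HSC replicate 3. The direction was less affected: with any 1 array left out, 36 to 38 of the 39 differences were positive and their median lay between 0.64 and 0.77. Single differences were less steady, since leaving out 1 array moved 15 of them by over 1.5 times or turned their sign, 0 of which belonged to genes that rose.

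Markers of other blood cells were read on the same arrays, because a sorted fraction may hold cells of several types. Of 16 T and NK cell markers, 11 were tested, 5 rose and 0 fell, where 1.08% of tested genes rose and 0.945% fell. Of the 11, 8 did not overlap, with Lrg47_HSC higher, a pattern of 12.8% of tested genes. Cd247, Cd28 and Lat overlapped. The summed linear level of the 16 was 9584 to 20700 on the Lrg47_HSC arrays and 673 to 1132 on the WT_HSC arrays. Most of the Lrg47_HSC sums came from Ccl5, at 12.81, 12.77 and 13.52 against 8.69, 7.33 and 8.29. The mean log2 level of the 16 was 5.77 to 7.65 against 4.33 to 4.67. The sum was highest on Lrg47_HSC replicate 3. The median deviation of the replication genes from their own means was 0.36, 0.33 and 0.24 on Lrg47_HSC replicates 1, 2 and 3. Replicate 3 had the highest median of its group for strand binding and Okazaki maturation (0.43) and for fork protection (0.59). Other Lrg47_HSC arrays had it in the remaining subgroups. Without Lrg47_HSC replicate 3 the replication genes had a median difference of 0.73. The T and NK cell marker sums on Lrg47_HSC replicates 1 and 2 were 10372 and 9584, so leaving out replicate 3 does not remove those markers. On the WT_HSC arrays Cd3d and Cd3g, subunits of the T cell receptor complex, lay below 3.18. That is the highest level of the bacterial control probe sets. On the Lrg47_HSC arrays all values of both lay above it, but neither gene passed the filter and neither was tested. On the same list, Cd3e differed by 0.77 (adjusted p = 0.464, limma) without overlap. Cd247 differed by 0.19 (adjusted p = 0.829) and Lat by −0.21 (adjusted p = 0.794), both with overlap. The summed level was 142 to 155 against 150 to 237 for 7 B cell markers, 2439 to 3765 against 1548 to 3605 for 9 granulocyte and monocyte markers and 873 to 1048 against 711 to 901 for 6 erythroid markers, and limma called 0 of the tested markers of these lists. Levels within these lists ranged widely. The neutrophil elastase gene Elane lay between 2.16 and 2.23, while the granule protease Prtn3 was at 9.75, 9.76 and 9.84 against 9.73, 9.56 and 7.21 (difference 0.95, adjusted p = 0.489) and the macrophage receptor Csf1r differed by 1.15 (adjusted p = 0.387). The erythroid factor Klf1 lay between 1.97 and 2.04, while the transferrin receptor Tfrc differed by 0.25 (adjusted p = 0.49) at levels above 9. The part of these cells in the replication gene differences was not tested. In such bulk samples, more cells that express a gene and more RNA of it per cell cannot be told apart.

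**Figure D2:**
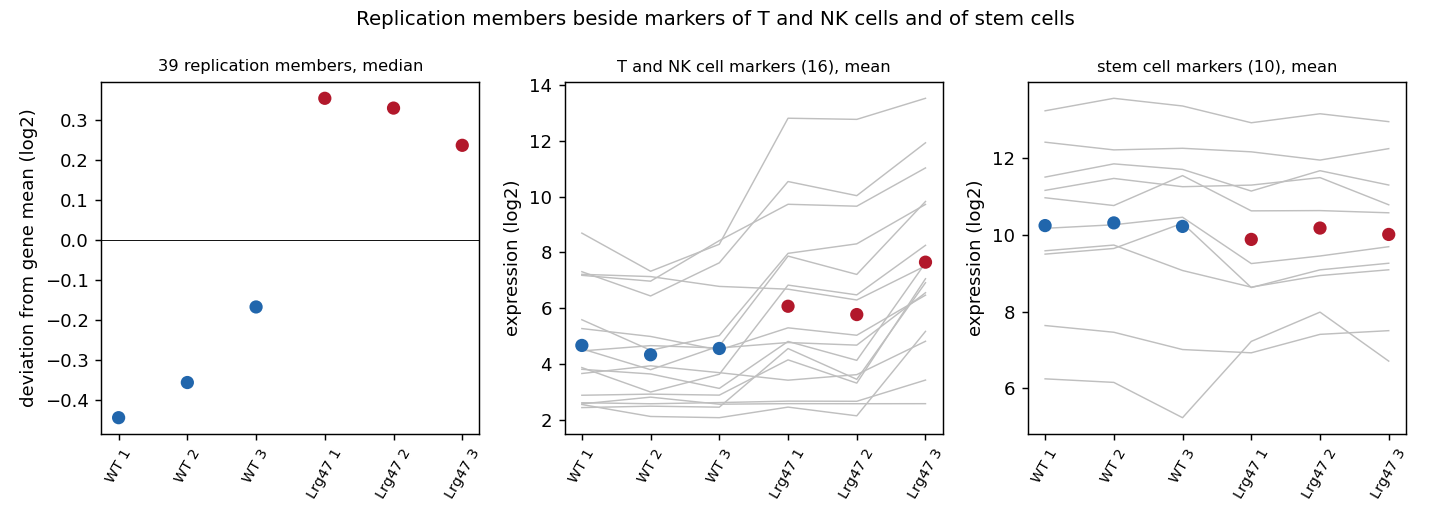
Left, median deviation of the 39 replication genes from their own means (log2) on each array. Middle and right, log2 levels of 16 T and NK cell markers and 10 stem cell markers (grey lines) with their mean (points), WT_HSC in blue and Lrg47_HSC in red. The mean of the T and NK cell markers is highest on Lrg47_HSC replicate 3. The median of the 39 replication genes is highest on Lrg47_HSC replicate 1, although single genes differ in this.

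The wild-type arrays were not alike for these genes. WT_HSC replicate 3 had the highest value of the wild-type arrays in 24 of the 39 genes, and replicates 1 and 2 in 8 and 7. Within the Lrg47_HSC group the highest value was spread over the replicates (11, 15 and 13 genes). Beta-actin probe sets at the 3′ end exceeded those at the 5′ end, a gap that widens as amplified RNA shortens, and this gap was 2.57 on WT_HSC replicate 3 and 3.16 on both others. On the Lrg47_HSC arrays it was 2.86, 2.81 and 3.56. The same gap for Gapdh ran the other way on WT_HSC replicate 3, at 3.08 against 2.77 and 2.72, and was 2.57, 2.56 and 2.94 on the Lrg47_HSC arrays.

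Among the origin recognition complex genes, all 6 differences were positive and 0 passed the test, with a median of 0.28. Orc1, the subunit whose level is known to change with the cell cycle, was at 6.02, 6.45 and 6.26 on the Lrg47_HSC arrays and at 4.83, 5.04 and 5.46 on the WT_HSC arrays. The groups do not overlap, and the difference was 1.14 (SE 0.22, adjusted p = 0.0591, limma). Orc6 was at 8.52, 8.53 and 8.33 against 7.87, 7.93 and 7.89, also without overlap, by 0.56 (SE 0.15, adjusted p = 0.141). The other 4 subunits, Orc2, Orc3, Orc4 and Orc5, overlapped between the groups. Their differences were 0.16, 0.26, 0.31 and 0.24, with intervals that reached from −0.37 to 0.99 at the widest, for Orc4. Without Lrg47_HSC replicate 2 the difference of Orc4 was 0.03 and that of Orc2 0.07. Orc3 and Orc4 each had 1 other tested probe set of opposite sign (−0.08 and −0.05).

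The licensing genes had a median of 1.13, the largest of the subgroups with all arrays in, and 0 of 4 passed the threshold. Without Lrg47_HSC replicate 1 it was 0.88, below the 1.04 of chromatin assembly and the 1.02 of fork protection. It also fell below chromatin assembly without WT_HSC replicate 1 and without WT_HSC replicate 2. Cdc6, which joins the origin complex to load the helicase, was at 9.03, 8.64 and 8.08 on the Lrg47_HSC arrays and 6.70, 7.03 and 7.64 on the WT_HSC arrays. The groups lie apart, although WT_HSC replicate 3 comes near to the lowest Lrg47_HSC array, and the difference was 1.46 or 2.75-fold (SE 0.32, adjusted p = 0.0915). Cdt1, the partner of Cdc6 in loading, was at 11.47, 11.26 and 11.73 against 10.74, 10.37 and 10.68. It differed by 0.89 (SE 0.17, adjusted p = 0.0571), and its other tested probe set by 0.998.

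Of the genes that restrain Cdt1, 0 of 2 passed. Geminin, which binds and blocks Cdt1, was at 9.74, 9.37 and 8.80 against 8.03, 8.04 and 8.61, a difference of 1.08 (SE 0.28, adjusted p = 0.129) without overlap. Dtl, which marks Cdt1 for destruction on the loaded clamp, was at 10.72, 9.23 and 9.82 against 8.64, 8.23 and 9.38, and here WT_HSC replicate 3 lies above Lrg47_HSC replicate 2. That probe set differed by 1.17 (SE 0.42, adjusted p = 0.24). All 5 tested probe sets of Dtl were positive (0.72 to 1.67) and 4 did not overlap. The dimmest of them rose by 1.67 (SE 0.25, adjusted p = 0.0313), a probe set named after its values were seen.

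The 4 origin firing genes went in both directions, with a median of 0.70 and 0 past the threshold. Mcm10, which helps the helicase to start unwinding, was at 6.62, 5.82 and 6.67 against 5.08, 4.94 and 5.14. Its groups lie apart, with Lrg47_HSC replicate 2 the lowest of its group, and the difference was 1.32 (SE 0.25, adjusted p = 0.0589). The kinase Cdc7 was at 10.26, 9.61 and 9.78 against 8.81, 9.07 and 9.66 (difference 0.70, SE 0.26, adjusted p = 0.255). Its activator Dbf4 was at 8.71, 8.94 and 8.51 against 8.85, 8.92 and 9.18 (difference −0.27, SE 0.18, adjusted p = 0.505). Both overlap between the groups, and the difference between them was not tested. Gins3, a subunit of the GINS part of the helicase, differed by 0.70 (SE 0.28, adjusted p = 0.276) with overlap. Mcm10 rose without Lrg47_HSC replicate 2 (adjusted p = 0.0351, and up to 0.186 under other settings).

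**Figure D3:**
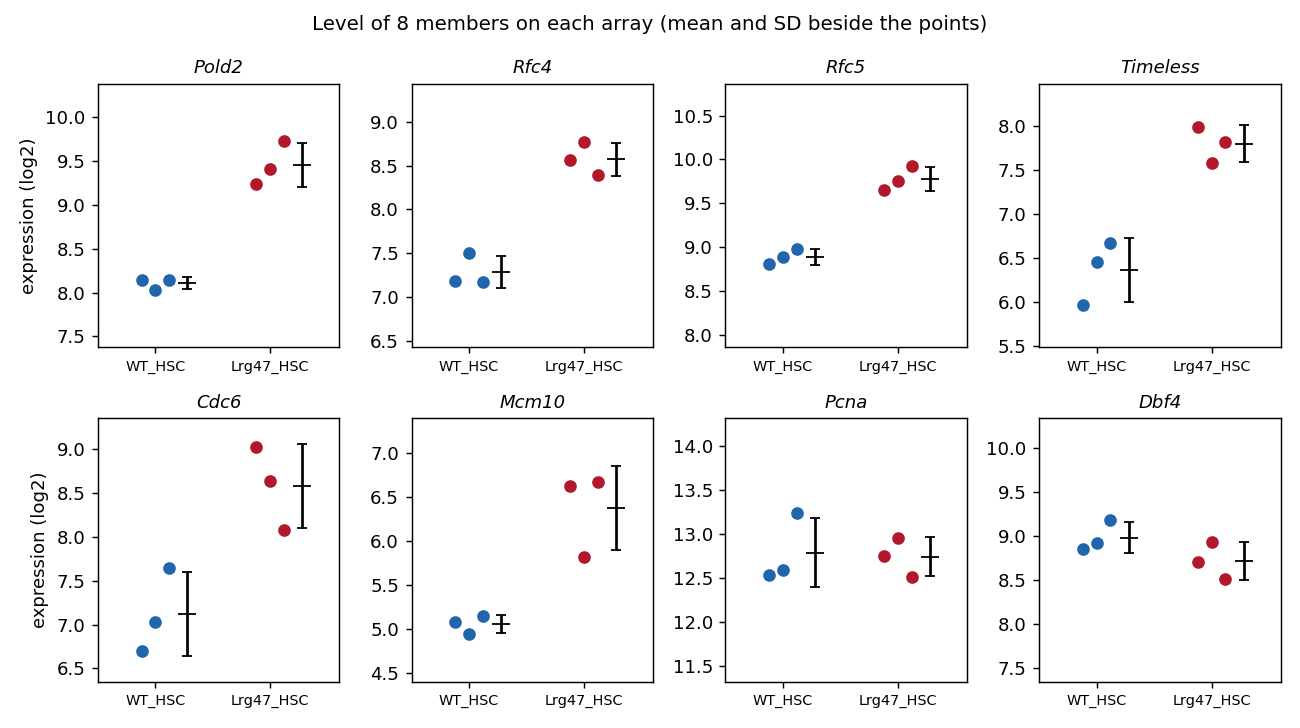
Log2 level (y axis, a span of 3 units in each panel) of 8 genes on each WT_HSC array (blue) and each Lrg47_HSC array (red), with mean and SD beside the points. The groups lie apart for Pold2, Rfc4, Rfc5, Timeless, Cdc6 and Mcm10 and overlap for Pcna and Dbf4.

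All 9 polymerase and primase genes had positive differences (0.38 to 1.35, median 0.73). Of them 6 were free of overlap and 1 rose, where 12.8% and 1.08% of all tested genes did so. Pold2, the second subunit of polymerase delta, was at 9.23, 9.41 and 9.73 on the Lrg47_HSC arrays and at 8.15, 8.03 and 8.14 on the WT_HSC arrays. The wild-type values lie close together and every Lrg47_HSC array is above them by more than 1. Pold2 rose by 1.35 or 2.55-fold (SE 0.17, adjusted p = 0.0195). It lost the call without Lrg47_HSC replicate 2, WT_HSC replicate 1 or WT_HSC replicate 2 (adjusted p = 0.0801, 0.0895 and 0.104, within a range of 0.00545 to 0.104).

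The catalytic subunit of the same enzyme, Pold1, was at 10.14, 10.18 and 10.81 against 9.32, 9.69 and 9.27, a difference of 0.95 (SE 0.22, adjusted p = 0.105) without overlap. Its other tested probe set differed by 0.67 (adjusted p = 0.344) with overlap. Pold3, an accessory subunit, was at 9.24, 9.0 and 8.88 against 8.30, 8.90 and 8.80, by 0.38 (SE 0.21, adjusted p = 0.421). Its groups overlap in that probe set, but 1 of its 2 other tested probe sets did not overlap (difference 0.68, adjusted p = 0.116). Of polymerase epsilon, which extends the leading strand, the catalytic Pole differed by 0.73 (adjusted p = 0.286) with overlap and Pole2 by 0.53 (adjusted p = 0.233) without.

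Primer synthesis showed the same direction in its 4 subunits. Prim1 and Prim2, the small and large primase subunits, had differences of 0.77 (adjusted p = 0.109) and 0.63 (adjusted p = 0.132), both without overlap. The other tested probe set differed by 0.58 without overlap for Prim1 and by 0.29 with overlap for Prim2 (adjusted p = 0.127 and 0.593). Pola2, the accessory subunit of polymerase alpha, differed by 0.65 (SE 0.19, adjusted p = 0.167). Its next brightest probe set differed by 0.71 (adjusted p = 0.166), also without overlap. The catalytic Pola1 was at 8.67, 8.73 and 8.20 against 7.17, 7.09 and 8.50. Here the overlap rests on WT_HSC replicate 3, and the difference of 0.95 (SE 0.38, adjusted p = 0.285) was 1.41 without that array (SE 0.22, adjusted p = 0.0618, within a range of 0.0569 to 0.525).

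Of the clamp and its loader, 5 of 6 differences were positive, 3 were free of overlap and 2 genes rose. Over all tested genes 12.8% were free of overlap in this direction and 1.08% rose. PCNA, the sliding clamp that tethers the polymerases, was at 12.75, 12.96 and 12.51 on the Lrg47_HSC arrays and at 12.53, 12.58 and 13.24 on the WT_HSC arrays. The highest and lowest of the 6 values are WT_HSC replicate 3 and Lrg47_HSC replicate 3. The difference was −0.05 (SE 0.21, 95% interval −0.54 to 0.45, adjusted p = 0.936), and it turned positive without either of those arrays (0.18 without WT_HSC replicate 3 and 0.07 without Lrg47_HSC replicate 3).

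Of the 5 clamp loader genes, 2 rose and 3 did not overlap (median 0.69), against 1.08% and 12.8% of all tested genes. Rfc4, a small subunit of the loader, was at 8.56, 8.76 and 8.39 against 7.19, 7.50 and 7.17 and rose by 1.28 or 2.43-fold (SE 0.19, adjusted p = 0.028). Rfc5 was at 9.65, 9.76 and 9.92 against 8.81, 8.89 and 8.98 and rose by 0.89 or 1.85-fold (SE 0.15, adjusted p = 0.0395). In both genes the lowest Lrg47_HSC array stands clear of the highest WT_HSC array. The large subunit Rfc1, at 9.23, 8.82 and 8.28 against 7.94, 8.15 and 8.17, differed by 0.69 (SE 0.25, adjusted p = 0.243) without overlap in any of its 3 tested probe sets. Rfc2 and Rfc3 overlapped in their brightest probe sets, with differences of 0.28 (95% interval −0.14 to 0.70) and 0.03 (−0.49 to 0.55). The other 2 tested probe sets of Rfc2 did not overlap (0.46 and 0.28, adjusted p = 0.274 and 0.465). The difference of Rfc3 changed sign without Lrg47_HSC replicate 1 (−0.10) or WT_HSC replicate 1 (−0.16). Whether the loader's subunits differ from each other was not tested.

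The calls of the loader genes rested on the full set of arrays. Rfc4 lost its call when any 1 array but Lrg47_HSC replicate 3 was left out (adjusted p up to 0.114 over its alternatives, the lowest being 0.00832), and Rfc5 when any 1 array was left out (0.0146 to 0.15). The probe set of Rfc4 has an ID ending in _s_at, a type that can match more than 1 transcript. Its other tested probe set, of the plain type, differed by 1.16 (SE 0.27, adjusted p = 0.101) without overlap.

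**Figure D4:**
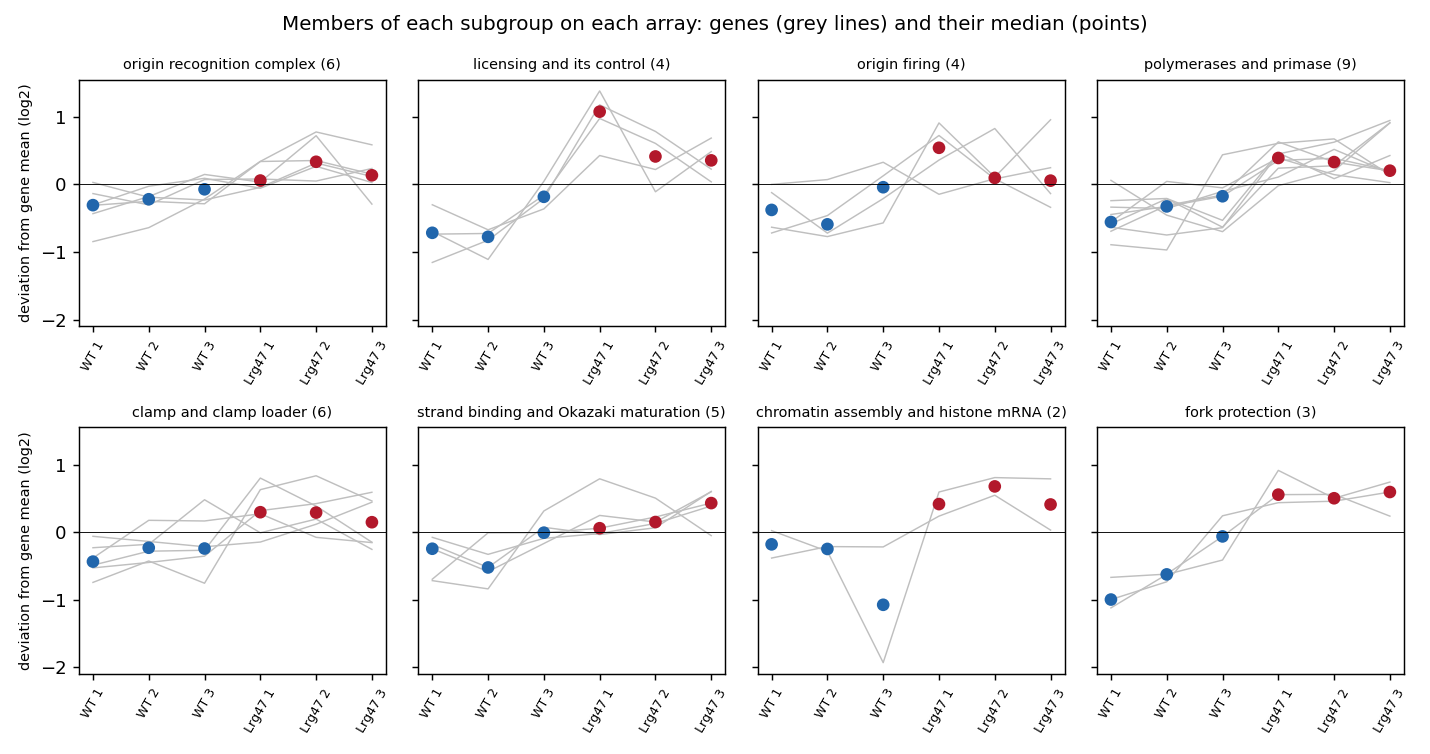
Deviation of each gene from its own mean over the 6 arrays (y axis, log2) on each array, by subgroup, with genes as grey lines and their median as points (WT_HSC blue, Lrg47_HSC red). The Lrg47_HSC medians lie above 0 in all 8 subgroups and the WT_HSC medians below 0, with WT_HSC replicate 3 nearest to 0 in 6 of them.

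The genes of strand binding and Okazaki fragment maturation had a median of 0.48, with 5 of 5 positive. Of the 5, 3 were free of overlap, against 12.8% of all tested genes, and 0 passed the threshold. Rpa1, the large subunit of the single-strand binding protein RPA, was at 12.78, 12.69 and 13.13 against 12.29, 11.95 and 12.37, a difference of 0.66 (SE 0.16, adjusted p = 0.116). Its groups lie apart, and those of its other tested probe set too (0.91). Rpa2 differed by 0.48 (SE 0.23, adjusted p = 0.358) without overlap, and its other tested probe set by 0.50 with overlap. Rpa3 was at a difference of 0.83 (SE 0.36, adjusted p = 0.305), with overlap through WT_HSC replicate 3. The flap nuclease Fen1 and the ligase Lig1, which trim and seal Okazaki fragments, had differences of 0.33 (adjusted p = 0.344) and 0.42 (adjusted p = 0.405), and Lig1 overlapped.

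For chromatin assembly, 2 of the 3 listed genes were read, and 0 passed the test. Chaf1b, a subunit of the histone chaperone CAF-1 that PCNA brings to the fork, was at 6.20, 6.42 and 6.40 against 5.63, 5.33 and 3.68. The low value is WT_HSC replicate 3, which stands far below the others. The difference of 1.46 (SE 0.47, adjusted p = 0.197) was 0.86 without that array (SE 0.19, adjusted p = 0.137, its alternatives giving 0.116 to 0.39). Slbp, which binds the stem-loop of histone mRNAs and is needed for their supply in S phase, was at 10.54, 10.85 and 10.33 against 9.92, 10.09 and 10.08, by 0.54 (SE 0.16, adjusted p = 0.179), without overlap.

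All 3 fork protection genes were free of overlap, and 1 rose (median 0.99), against 12.8% and 1.08% of all tested genes. Timeless, which with Tipin holds helicase and polymerase together, was at 8.00, 7.59 and 7.82 on the Lrg47_HSC arrays and at 5.96, 6.46 and 6.67 on the WT_HSC arrays, and it rose by 1.44 or 2.71-fold (SE 0.23, adjusted p = 0.039). Its other tested probe set differed by 1.23 (SE 0.24, adjusted p = 0.0658), again without overlap. Timeless lost its call when any 1 array was left out (adjusted p up to 0.14 over its alternatives, the lowest being 0.00541).

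The partners of Timeless stood in the same order. Tipin was at 9.38, 9.38 and 9.06 against 8.15, 8.20 and 8.76, a difference of 0.90 (SE 0.21, adjusted p = 0.106). Clspn, which encodes claspin, the adaptor that passes the checkpoint signal from a stalled fork to the kinase Chk1, was at 7.05, 7.07 and 7.21 against 5.61, 5.88 and 6.85. WT_HSC replicate 3 is the wild-type array nearest to the Lrg47_HSC values for all 3 genes. Clspn differed by 0.99 (SE 0.32, adjusted p = 0.197), and without WT_HSC replicate 3 it rose by 1.36 (SE 0.19, adjusted p = 0.0449, within a range of 0.0449 to 0.412).

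Set side by side, the subgroup medians were 1.13 for licensing, 1.0 for chromatin assembly, 0.99 for fork protection, 0.73 for polymerases and primase, 0.70 for origin firing, 0.48 for the clamp with its loader, 0.48 for strand binding and Okazaki maturation and 0.28 for the origin recognition complex. The spread of these medians between arrays of a group (SD) was 0.37, 0.37, 0.33, 0.15, 0.27, 0.10, 0.23 and 0.13 in the same order. The chromatin assembly median is of 2 genes. Without WT_HSC replicate 3 these differed by 0.86 (Chaf1b) and 0.57 (Slbp), so its place in the order rests on that array. Taken as a whole, the 14 origin genes had a median of 0.70 and 6 genes without overlap, and the 9 polymerase and primase genes 0.73 and 6. Such a lack of overlap, with Lrg47_HSC higher, was seen in 12.8% of all tested genes. The subgroups hold 2 to 9 genes each, and their differences from each other were not tested.

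Probe sets of the same gene mostly gave the same direction. Of 83 probe sets of these genes 71 were tested, 67 had a positive difference, 44 were free of overlap with Lrg47_HSC higher (against 11.5% of all probe sets tested), 5 rose and 0 fell (against 0.664% and 0.722% of all probe sets tested). In 19 of 21 genes with several tested probe sets all were positive, the exceptions being Orc3 and Orc4.

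Other replication genes, from lists outside the 40, gave the background of the pathway. Of 53 listed, 51 were tested, with a median of 0.52. Of these 9 rose, 0 fell and 42 did not pass, where 1.08% of tested genes rose and 0.945% fell. The 9 include Chtf18, whose call supports nothing, as described below. In the CMG helicase, which unwinds DNA at the fork, 3 of 10 rose (median 0.83), with Gins1 by 1.58 (adjusted p = 0.024) and Mcm5 by 1.15 (adjusted p = 0.0279). Of 8 tested genes of deoxynucleotide supply, which feeds the polymerases, 4 rose (median 0.84), with Tk1 by 1.70 (adjusted p = 0.009) and Rrm2 by 1.79 (adjusted p = 0.0176).

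Of the alternative clamp loader that acts in sister chromatid cohesion, 3 subunits were tested. Dscc1 rose by 1.46 (adjusted p = 0.028), and Chtf8 was at a difference of −0.26 (adjusted p = 0.756) with overlap. Chtf18 is the third and counts among the 9 that rose (adjusted p = 0.0499), but its probe set passed the filter through the Lrg47_HSC arrays alone, with 4.23, 4.22 and 4.40 there and 2.87, 3.59 and 3.35 on the WT_HSC arrays, all below their array's median, so its call supports nothing. Over the 7 genes of that list, which also holds small subunits of polymerases delta and epsilon, the median was 0.04. Of 7 tested origin and fork factors, 7 of primer removal and topoisomerases and 8 of histone chaperones and histone mRNA, limma called 0 (medians 0.47, 0.49 and 0.24, and 13 of the 22 higher at unadjusted p under 0.05, against 8.51% of tested genes). The nuclease Dna2 was at a difference of 1.27 (adjusted p = 0.0748), topoisomerase Top2a at 0.68 (adjusted p = 0.112) and Casp8ap2, a histone gene regulator, at 0.97 (adjusted p = 0.0724). The 4 genes of ubiquitin ligases that act in licensing had a median of −0.17 with 0 calls by limma and 1 higher and 1 lower at unadjusted p under 0.05, from Skp2 at 0.66 (adjusted p = 0.177) to Cul4b at −0.58 (adjusted p = 0.282).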

How the data were processed

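The deposited values are log2 expression levels per probe set, made by the authors with GCRMA, per the submitters' processing notes. No GCRMA version is stated in the labels. The log2 scale is taken from the range of the deposited values, since no label names it. Per the labels' protocols, RNA was amplified linearly by T7 transcription in repeated rounds and labelled with biotin, which favours 3′ ends. GCRMA compresses dim levels, so folds of dim genes depend on it. The values were used as deposited. Depth does not apply to arrays, and the number of arrays limits the precision.

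Of 45101 probe sets 34958 had 1 symbol. Probe sets above their array's median on at least 3 of 6 arrays, without Affymetrix controls, were tested with limma 3.58.1 in R 4.3.3 (lmFit, eBayes with trend, 2-sided), and p-values were adjusted by Benjamini-Hochberg over all 22580. The threshold was 0.05, all adjusted p-values are from this fit, and intervals are its 95% intervals. On simulated data with the spreads of these 22580 probe sets the fit recovered 41% of 2-fold and 81% of 4-fold changes.

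Subgroups and lists are described by counts and medians. The rule for named genes was all 40 members, up to 2 of the other replication genes per list with the smallest p, and members whose probe sets disagree. The members and lists were chosen with earlier results of these data known. Promoter words were searched by exact match in RefSeq windows of GRCm38.p6. Alternatives covered the filter, normalization, variance model, array weights, replicate block, actin gap, probe set choice, threshold and each array left out.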

Additional observations from a re-analysis of the deposited data

How the results depend on the processing

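All but Pcna and Rfc3 kept their direction in each alternative that tested them, which was 33 genes with the filter at the 70th percentile, 38 with probe sets of the plain type or the mean of all probe sets, and 39 in the rest. Pcna was at 0.16 with array weights, 0.041 with the actin gap as covariate, 0.07 without Lrg47_HSC replicate 3 and 0.18 without WT_HSC replicate 3, and Rfc3 at −0.10 without Lrg47_HSC replicate 1 and −0.16 without WT_HSC replicate 1. With each array left out in turn Pcna ranged from −0.17 to 0.18 and Rfc3 from −0.16 to 0.12. The count of these genes that rose, 4 in the fit reported, was 0 with no filter on dim probe sets, 2 with a filter at the 25th percentile, 12 with array weights, 9 with the actin gap as covariate, 7 with the mean of all probe sets of a gene, 8 at adjusted p under 0.1, 0 at adjusted p under 0.01, and 0 to 2 with an array left out. The count of other replication genes that rose, 9 in the fit reported, was 2, 3 and 15 under the first 3 of these, 15 and 1 at the looser and stricter threshold, and 0 to 5 with an array left out. Over all probe sets, 49 of 45037 rose with no filter, 62 of 33780 at the 25th percentile and 193 of 13735 at the 70th. That number was 401 of 22580 with array weights and 252 with the actin gap, against 150 in the fit reported. With the filter at the 70th percentile 6 of the 39 genes and 11 of the other replication genes rose. No gene of either set fell in any alternative where limma called 0 in the fit reported. The medians moved beyond the spread between arrays for the origin recognition complex with array weights (0.43), fork protection without WT_HSC replicate 3 (1.36, range 0.79 to 1.36 over the arrays left out), origin firing with probe sets of the plain type (0.38) and chromatin assembly with the mean of all probe sets (0.58). The 0.38 uses an Mcm10 probe set too dim to be tested, with group means of 2.67 (Lrg47_HSC) and 2.61 (WT_HSC). The 0.58 averages in untested dim probe sets of Chaf1b (means 2.11 and 2.09) and Slbp (3.01 and 2.95). Quantile normalization, median centring, no trend and robust eBayes left all 39 calls as they were. The causes of the other shifts were not tested.

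Replicate numbers are shared by the groups. Deviations of same-numbered arrays correlated at −0.11, −0.02 and −0.28, and those of arrays with unlike numbers at −0.20 to 0.24. The deviations are from each group's own mean, which ties these values to each other. They cannot decide whether same-numbered arrays were handled together. With the replicate block 0 of these genes and 1 of the other replication genes rose, where 27 of 22580 probe sets did. The number of arrays, 3 per group, limits what can be called.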
